A study of Mus musculus with 2 samples.

Results

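The genes described here are 10 well-known targets of the transcription factor NRF2: *Slc7a11*, *Gclc*, *Gclm*, *Txnrd1*, *Srxn1*, *Hmox1*, *Nqo1*, *G6pdx*, *Gsta4* and *Osgin1*. They were taken by symbol from the 36998 distinct names on the array, and all 10 were present. Expression was measured on 2 single-colour arrays, 1 of WT and 1 of Cx30 KO mice, with probes of 60 bases, and each array held the pooled striatal RNA of 2 mice. Both groups were male, 8 weeks old, and had received MPTP as 4 injections of 20 mg/kg at intervals of 2 h, and both were examined on day 1 after MPTP. MPTP is a toxin that damages dopaminergic nerve terminals of the striatum, and Cx30 is a gap junction protein of astrocytes encoded by *Gjb6*. By the labels the strain is C57BL/6J for WT and Cx30-LacZ for Cx30 KO. The methods describe WT controls as non-mutant offspring of heterozygous parents, a choice made there to control the genetic background. Where the strain labels hold, a difference of strain cannot be told apart from the loss of Cx30. Both genotypes had received MPTP, so the ratios below compare the genotypes after the toxin and do not give a response to it. Arrays of saline-treated mice were not analysed here.

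NRF2, encoded by *Nfe2l2*, is held at a low level in unstressed cells because KEAP1 hands it to a ubiquitin ligase for degradation. Oxidants and electrophiles modify KEAP1, NRF2 then accumulates, pairs with a small Maf protein and binds antioxidant response elements near its target genes. In the brain this programme is known to be strong in astrocytes, which supply neighbouring neurons with precursors of glutathione.

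The short core of the antioxidant response element, TGACNNNGC on either strand, was searched from 250 bases before to 50 bases after each transcription start in the RefSeq promoter table of the GRCm38.p6 build. Of the 10 genes, 7 matched the table by symbol, with 9 windows in all, and *Hmox1*, *Gclc* and *Gsta4* did not. The core was present for 4 of the 7, whereas 14.0% of all 27025 genes listed and 12.4% of their 32851 windows held it. A match to these letters is a description of the sequence and not evidence of binding. The stretches of the 4 genes are shown 5′ to 3′ on the strand of the gene, with the match in capitals (all 4 read as the reverse complement of the core).

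Gclm: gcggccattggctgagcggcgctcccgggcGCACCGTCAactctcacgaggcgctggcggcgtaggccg
Txnrd1: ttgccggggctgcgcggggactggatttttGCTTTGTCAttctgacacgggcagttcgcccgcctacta
Srxn1: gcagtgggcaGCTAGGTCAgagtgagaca
G6pdx: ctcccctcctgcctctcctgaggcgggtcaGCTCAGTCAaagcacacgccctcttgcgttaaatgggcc

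The stretch of *Gclm* lies at chr3:122245393-122245461 on the plus strand, with the match 134 bases before the start. That of *Txnrd1* lies at chr10:82859084-82859152 on the plus strand, 92 bases before the start of 1 of its 3 windows. That of *G6pdx* lies at chrX:74428899-74428967 on the minus strand, 57 bases before the start. In *Srxn1*, at chr2:152105542-152105570 on the plus strand, the match falls 28 bases after the start.

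The 10 genes shared no direction between the genotypes. *Hmox1* was lower in Cx30 KO, at 0.562 of WT, and was the only one of the 10 to meet the study's criteria for a difference. The other 9 had log2 ratios between −0.40 and 0.72, 4 of them below 0 and 5 above. To meet the criteria as higher a gene needs a ratio of 1.5 or more and a Z-score of 2.0 or more, and as lower a ratio no greater than 0.66 and a Z-score no greater than −2.0. The Z-score sets a log2 ratio of Cx30 KO over WT against the ratios of the 1000 probes nearest in signal. That set of probes was chosen here, since the sources used here name none, and over all probes none of the 10 genes met the criteria. With 1 array for each genotype there is no replicate and no test, and meeting the criteria describes the size of a ratio between these 2 arrays. Of 22008 genes detected, 746 or 3.39% were lower by the criteria and 522 or 2.37% were higher, so 1 lower gene of 10 is a single gene and not a result about the group. Log2 ratios were below 0 in 5 of the 10 genes, against 45.4% of all genes detected. Their median was −0.01, against 0.03 for all genes, and without *Hmox1* it was 0.16. In pooled tissue RNA, fewer cells of a type and less RNA per cell cannot be told apart.

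**Figure D1:**
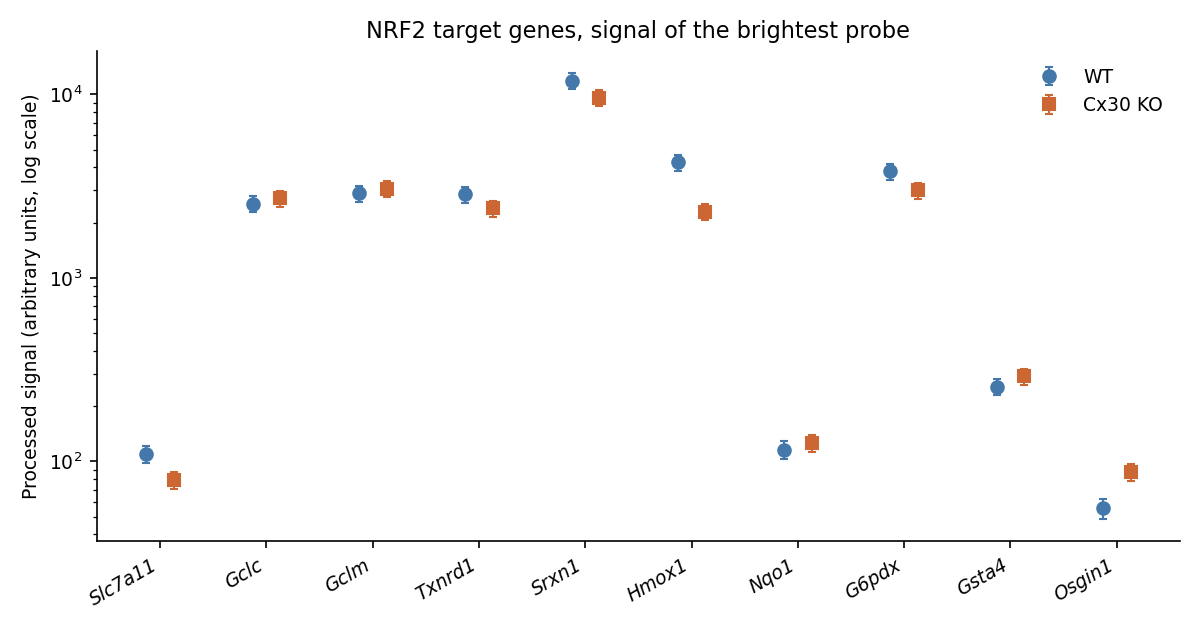
Processed signal in arbitrary units (log axis) of the brightest probe of each of the 10 NRF2 target genes on the WT array (circles) and the Cx30 KO array (squares), with the scanner software's error for that array as bars. *Hmox1* was at 4271 in WT and 2283 in Cx30 KO. The signals are shown before scaling between the arrays, and the 75th percentile was higher in WT (401) than in Cx30 KO (382). Whether the bars of a gene overlap can depend on that scaling. The share of all genes whose bars do not overlap was not counted.

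As a check of the labels, *Gjb6* was measured first. Its brightest probe, NM_001010937 at chr14:57742226-57742285 in the mm9 build used by the files, gave 1788 ± 179 in WT and 111 ± 11.6 in Cx30 KO. These values, and the levels given below, are processed signals in arbitrary units, and the ± is the scanner software's error for a single array. The ratio was 15.4-fold lower in Cx30 KO with a Z-score of −11.9, as the labels of the arrays say. A second probe was well above background in WT alone and at least 4.33-fold lower. Markers of striatal neurons were present on both arrays, with *Penk* at 163257 in WT and 169777 in Cx30 KO, and none of the 9 met the criteria (median log2 ratio −0.16). Markers of cortical neurons were not equal: 5 of 6 were higher in Cx30 KO by the criteria, against 2.37% of all genes. Of the 5, *Tbr1* had 78.6 in WT and 423 in Cx30 KO, and the summed signals of the 6 were 175 and 1391. Among the others were *Neurod2* (log2 ratio 3.67) and *Slc17a7* and *Neurod6*, which were well above background in Cx30 KO alone and at least 12.1-fold and 3.44-fold higher. Their part in the results below was not tested.

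Heme degradation is represented by *Hmox1*, which encodes heme oxygenase 1, the inducible enzyme that opens heme into biliverdin, iron and carbon monoxide. Its probe NM_010442 at chr8:77624406-77624466 gave 4271 ± 427 in WT and 2283 ± 228 in Cx30 KO. These signals, taken before scaling between the arrays, did not overlap within the scanner's error. The share of all genes of which this is true was not counted. The log2 ratio was −0.83, or 1.78-fold lower in Cx30 KO, with a Z-score of −2.97, and the SD of the log2 ratios of the nearest probes was 0.28. Of the 1000 nearest probes 12 had a ratio as low, and 809 of all genes detected, or 3.68%, had one as low. A second probe, ENSMUST00000160341 at chr8:77620085-77620144, was not well above background on either array (4.50 and 3.98). With a Z-score taken over all probes in place of the nearest it was −1.43, which does not meet the criteria, and with ratio limits of 2 and 0.5 *Hmox1* does not meet them either.

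Cystine import and glutathione synthesis gave no difference by the criteria. *Gclc* and *Gclm* encode the catalytic and modifier subunits of glutamate-cysteine ligase, the rate-limiting enzyme of glutathione synthesis. *Gclc*, NM_010295 at chr9:77641296-77641355, had 2533 ± 253 in WT and 2718 ± 272 in Cx30 KO (log2 ratio 0.17, Z-score 0.65). *Gclm*, NM_008129 at chr3:121967737-121967796, had 2886 ± 289 and 3064 ± 306 (log2 ratio 0.16, Z-score 0.60). Both subunits were within the scanner's error between the arrays. *Slc7a11* encodes xCT, the cystine-glutamate exchanger that supplies cysteine for glutathione. Its probe at chr3:50176047-50176106 (NM_011990) had 110 ± 11.7 in WT and 79.3 ± 8.69 in Cx30 KO (log2 ratio −0.40, Z-score −1.07). A second probe of the same transcript, at chr3:50169700-50169759, was well above background in WT (42.8 ± 6.64) and did not pass that level in Cx30 KO (15.1 ± 4.75), so it was at least 2.35-fold lower, with a Z-score of −1.71. Both probes were below WT in Cx30 KO and neither met the criteria. The remaining 2 probes of *Slc7a11* were not well above background on either array.

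Neither of the thioredoxin and sulfiredoxin genes met the criteria, and both had log2 ratios below 0. *Txnrd1* encodes the cytosolic thioredoxin reductase, which recharges thioredoxin from NADPH. It had 2853 ± 285 in WT and 2391 ± 239 in Cx30 KO on its brightest probe, NM_001042523 at chr10:82360230-82360289 (log2 ratio −0.18, Z-score −0.66). Its other probe, at chr10:82338379-82338438, had 1820 ± 182 and 1512 ± 151, a log2 ratio of −0.20. Both probes gave a similar ratio, and the scanner's errors overlapped between the arrays on the brightest. *Srxn1* encodes sulfiredoxin, which repairs over-oxidised peroxiredoxins. Its probe NM_029688 at chr2:151937009-151937068 had 11885 ± 1189 in WT and 9563 ± 956 in Cx30 KO (log2 ratio −0.24, Z-score −1.20).

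The remaining genes went in both directions without meeting the criteria. *Nqo1* encodes a quinone reductase and is the usual reporter gene of NRF2. Its probe NM_008706 at chr8:109912440-109912499 had 116 ± 12.4 in WT and 126 ± 13.2 in Cx30 KO (log2 ratio 0.19, Z-score 0.41). *G6pdx* encodes glucose-6-phosphate dehydrogenase, which makes NADPH in the pentose phosphate pathway. Its probe NM_008062 at chrX:71654949-71655008 had 3815 ± 382 and 3001 ± 300 (log2 ratio −0.27, Z-score −1.02). *Gsta4* encodes a glutathione transferase that clears the lipid peroxidation product 4-hydroxynonenal, and its probe NM_010357 spans an exon junction (chr9:78046172-78047344). It had 255 ± 25.9 and 290 ± 29.3 (log2 ratio 0.26, Z-score 0.56). *Osgin1* encodes an oxidative stress-induced growth inhibitor. Its probe NM_027950 at chr8:121970077-121970136 had 55.6 ± 6.83 in WT and 87.1 ± 9.38 in Cx30 KO, a ratio of 1.65. This passes the limit on the ratio but not that on the Z-score, which was 1.35, the SD of the nearest probes being 0.48.

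**Figure D2:**
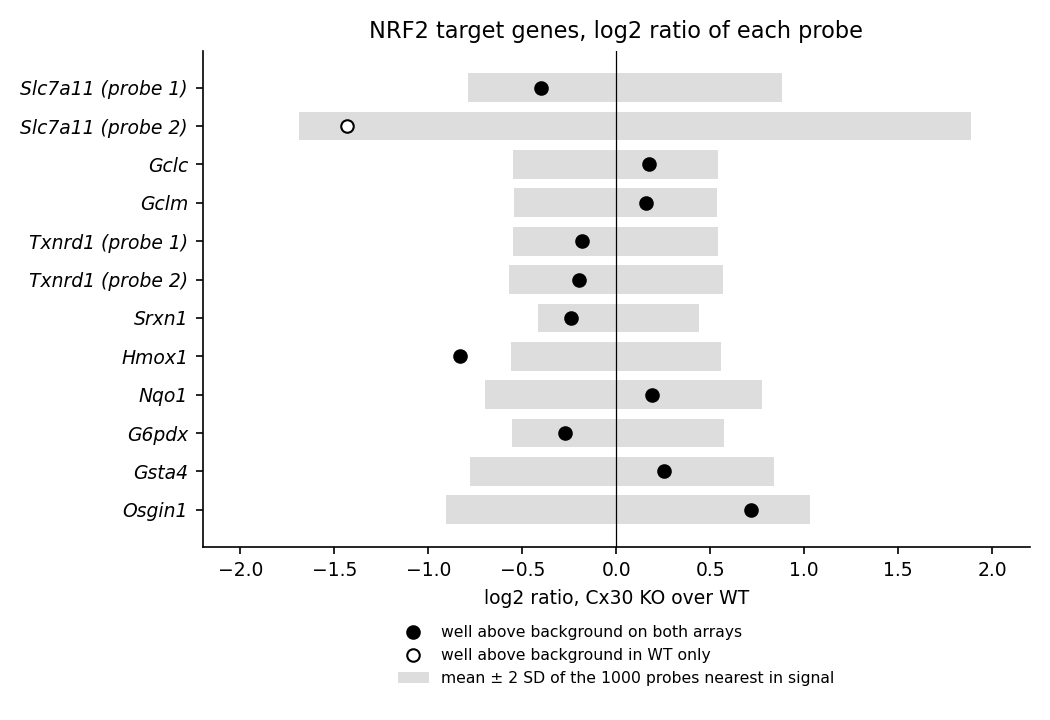
Log2 ratio of Cx30 KO over WT of each probe of the 10 NRF2 target genes that was well above background on at least 1 array (points), against the mean ± 2 SD of the 1000 probes nearest in signal (grey bars). Of 12 probes the one of *Hmox1*, at −0.83, is the only one outside its bar. The open point of *Slc7a11* was well above background in WT alone.

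Precision within an array could be judged from repeated spots. Of 300 probes printed as 10 spots, 298 were well above background on each array. The SD of the log2 signal between their spots had a median of 0.039 in WT and 0.041 in Cx30 KO. Combined over both arrays as the root of the sum of squares, this gives 0.06 for a log2 ratio. The root mean square SD, which weighs the noisier probes more, gave 0.07 in the same way. Between different probes of a gene the SD of the log2 ratio was wider, with a median of 0.14 and a root mean square of 0.25 over 7147 genes. Neither measures the spread between mice.

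The genes that control NRF2 did not share a direction. All 14 regulators were detected on both arrays, 6 with log2 ratios below 0 and 8 above, against 45.4% of all genes below 0. Their median was 0.04. The only one to meet the criteria on its brightest probe was *Bach2*, a repressor that can occupy antioxidant response elements. Of all genes 3.39% were lower by the criteria, so 1 of 14 is a single gene and not a result about the regulators. *Bach2* had 93.4 in WT and 44.3 in Cx30 KO, a ratio of 0.499 with a Z-score of −2.34. It no longer met the criteria after background correction with normexp or with the Z-score over all probes (−1.71). *Bach1*, the related repressor known for holding *Hmox1* down, had a log2 ratio of −0.14. *Nfe2l2* itself had no settled direction: its brightest probe had 777 in WT and 506 in Cx30 KO (log2 ratio −0.55, Z-score −1.66), whereas a probe of transcript ENSMUST00000152371 had 47.9 and 89.3 (log2 ratio 0.97, Z-score 1.90), and the mean of both was 0.21. *Keap1* had 3508 in WT and 4256 in Cx30 KO (log2 ratio 0.35), and *Cul3* had one of 0.29. *Rbx1*, also a part of the ligase, was at −0.28, and *Btrc* and *Syvn1*, which serve other routes of NRF2 degradation, were at −0.44 and 0.02. Another probe carries the symbol *Syvn1* (AK134059) but lies on the opposite strand from the gene's RefSeq probe. It had 52.9 and 111, a log2 ratio of 1.15 that meets the criteria as higher (Z-score 2.42), and the value of 0.02 does not use it. The small Maf genes *Maff*, *Mafg* and *Mafk* were at 0.29, −0.07 and 0.35. *Sqstm1*, whose product p62 sequesters KEAP1, was the brightest of the list, with 18538 in WT and 19404 in Cx30 KO. The related factors *Nfe2l1* and *Nfe2l3* were at 0.06 and 0.25.

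Most genes on a list of 38 other NRF2 targets did not meet the criteria. Of these 37 were on the array and 34 were detected, *Gsta2*, *Ugt1a6a* and *Ptgr1* being below that level on both arrays. Log2 ratios were below 0 in 21 and above in 13, against 45.4% of all genes below 0, with a median of −0.10. By the criteria 3 were lower and 1 was higher, against 3.39% and 2.37% of all genes, and 1 higher gene of 34 is near that background. The calls of *Aldh3a1* and *Gpx2* below are lost with the Z-score over all probes (−1.21 and 1.25) and with ratio limits of 2 and 0.5. *Akr1b8*, an aldo-keto reductase, had 957 ± 95.7 in WT and 332 ± 33.4 in Cx30 KO, which is 2.74-fold lower with a Z-score of −4.59. Its close relatives *Akr1b10* and *Akr1b3* had log2 ratios of −0.47 and −0.13 on their brightest probes, and hybridisation of one relative's RNA to another's probe was not tested. *Aldh3a1*, an aldehyde dehydrogenase, had 736 ± 73.8 and 430 ± 43.3 (log2 ratio −0.70, Z-score −2.18). *Abcc2*, an exporter of glutathione conjugates, was well above background in WT alone (26.2 against 3.96) and was at least 1.44-fold lower. This bound does not itself reach the limit on the ratio, so its call rests on a signal not well above background, and 2 genes of the list were lower where both arrays had to be above it. *Cbr1*, a carbonyl reductase, was the nearest to no difference at −0.01. *Gpx2*, a glutathione peroxidase, was the 1 that was higher, with 171 ± 17.6 in WT and 278 ± 28.0 in Cx30 KO (log2 ratio 0.77, Z-score 2.09).

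Some functional groups of the list leaned one way with small ratios. With *G6pdx*, all 6 genes of NADPH supply had log2 ratios below 0: *Pgd* −0.03, *Taldo1* −0.43, *Tkt* −0.29, *Me1* −0.39 and *Idh1* −0.21. *Taldo1* had a Z-score of −2.12 but a ratio of 0.744, outside the limit. Where the probes of a gene were averaged, 5 of the 6 were below 0. With *Txnrd1* and *Srxn1*, all 5 thioredoxin genes were below 0, *Txn1* at −0.17, *Prdx1* at −0.31 and *Prdx6* at −0.21. None of these 11 genes met the criteria, and 45.4% of all genes were below 0. The other groups of the list were mixed. Glutathione genes had 1 below 0 and 2 above, conjugation and detoxification genes 7 and 6. Heme and iron genes had 2 and 4, and export genes 3 and 1. Among the genes of heme and iron handling the ferritin chains *Fth1* and *Ftl1* were at −0.08 and 0.03, and *Fech*, *Blvrb*, *Slc48a1* and *Abcb6* were between −0.12 and 0.25.

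Other antioxidant enzymes, which are not classical NRF2 targets, gave no gene that met the criteria. All 20 were detected, 15 with log2 ratios below 0 and 5 above, against 45.4% of all genes below 0. Their median was −0.15. The lowest was *Sod3*, the extracellular superoxide dismutase, at −0.49, and the highest was *Gpx3* at 0.34. *Sod1*, *Sod2* and *Cat* were at 0.13, −0.35 and −0.16. The brightest was a probe of the glutaredoxin *Glrx2*, with 295872 in WT and 295467 in Cx30 KO (log2 ratio 0.07). Another probe of the same transcript was far dimmer, with 5993 and 5467 (log2 ratio −0.06), so that level rests on 1 probe. The nearest to no difference was *Txnrd2*, the mitochondrial thioredoxin reductase, at −0.01. *Slc7a11* is also a target of ATF4, the factor of the amino acid response. Of 12 genes of that pathway 3 were below 0, against 45.4% of all genes, and 9 above, with a median of 0.08. Among the 12 only *Trib3*, a pseudokinase induced by ATF4, was higher by the criteria, against 2.37% of all genes. It is a single gene and not a result about the list. *Trib3* had 388 ± 39.2 in WT and 650 ± 65.2 in Cx30 KO (Z-score 2.63). Its call is lost with the Z-score over all probes (1.32) and with ratio limits of 2 and 0.5. *Atf4* itself was the brightest of the list and the nearest to no difference, with 15742 and 15014 (log2 ratio 0.00). *Slc3a2*, the heavy chain that xCT needs, was at −0.05.

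**Figure D3:**
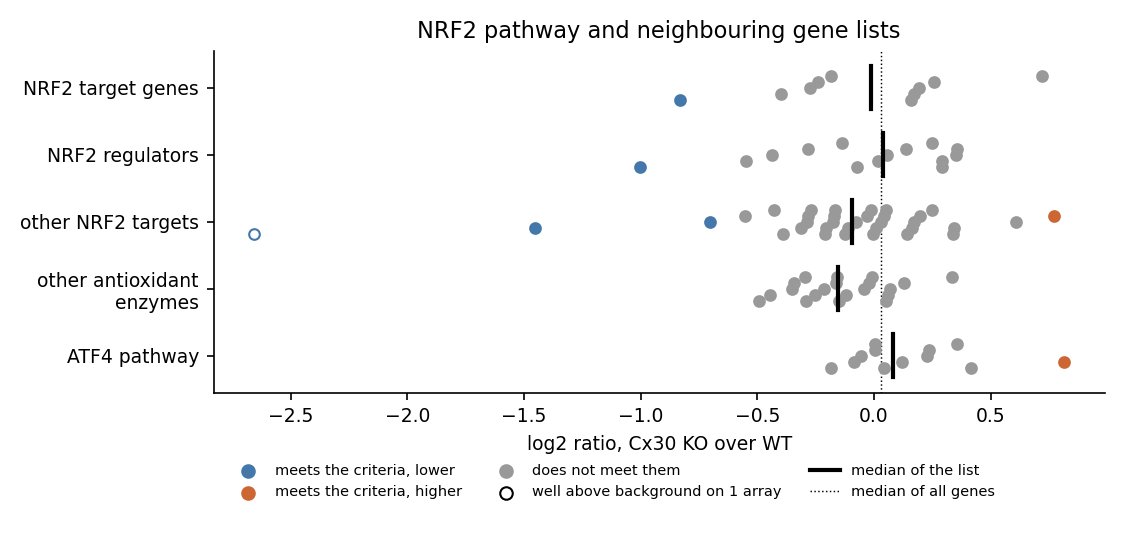
Log2 ratio of Cx30 KO over WT of each detected gene of 5 lists (points), with the median of each list as a bar and the median of all genes (0.03) as a dotted line. Colour marks genes that meet the study's criteria, and the medians of all 5 lists lie between −0.15 and 0.08.

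Heme oxygenase 1 is known to be induced in microglia and in reactive astrocytes. Of their markers 4 of 8 and 7 of 9 were lower in Cx30 KO by the criteria, beside *Hmox1*, against 3.39% of all genes. All 8 microglial markers had log2 ratios below 0 and 4 met the criteria, with a median of −0.52 and summed signals of 34233 in WT and 23824 in Cx30 KO. The brightest, *Csf1r*, had 12320 and 9170. The 4 were *Aif1*, *Cx3cr1*, *P2ry12* and *Tmem119*, with log2 ratios of −0.93, −0.67, −1.69 and −0.90. Of 10 reactive astrocyte markers 9 were detected (*Steap4* was not) and 7 were lower, with a median of −1.43 and summed signals of 14136 and 5659. The brightest, *Gfap*, had 6091 in WT and 1881 in Cx30 KO. The others were *Vim*, *Serpina3n*, *Cd44*, *Timp1*, *Osmr* and *Aspg*, from −2.44 for *Cd44* to −0.71 for *Aspg*. The remaining 2, *Lcn2* and *Cp*, were at 0.35 and 0.42, and a further probe of *Cp* was lower by the criteria at −1.31. Of the 7 markers of monocytes and border macrophages 6 were detected (*Ccr2* was not), with a median of −0.57, none meeting the criteria, summed signals of 1481 and 1116, and *Lyz2* the brightest at 1282 and 982. General astrocyte markers were nearer to 0, with a median of −0.07 over 9 genes, 1 of them, *Aqp4*, lower at −0.95. The 6 endothelial markers had a median of −0.22, 4 of them below 0, and only *Flt1* met the criteria, at −0.93, while its other detected probes were at −0.15 and 0.52. The 4 detected choroid plexus markers had a median of −0.30, and only *Ttr* met the criteria, at −1.27. Of 4 markers of fibroblasts and meninges 3 were detected, all 3 above 0 with a median of 0.26, and none met the criteria.

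Red blood cell genes, whose hemoglobin carries heme, were lower by the criteria in all 5 detected of 7 listed, against 3.39% of all genes. *Alas2* was not well above background and *Hbb-bs* was not on the array. The summed signals of the 5 were 6450 in WT and 1929 in Cx30 KO, and the brightest, *Hba-a1*, had 2976 and 915. *Hba-a2* and *Hbb-bt* were at −1.63 and −1.93, and *Hbb-b1* and *Hbb-b2*, well above background in WT alone, were at least 2.33-fold and 6.36-fold lower. Copies within the alpha globin and within the beta globin family are near-identical, so these are not 5 separate measurements. Of the oligodendrocyte markers 5 of 7 were lower by the criteria, against the same 3.39%. Their median was −0.73 and their summed signals were 157109 and 93330. The part of each of these cell types in the ratio of *Hmox1* was not tested.

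**Figure D4:**
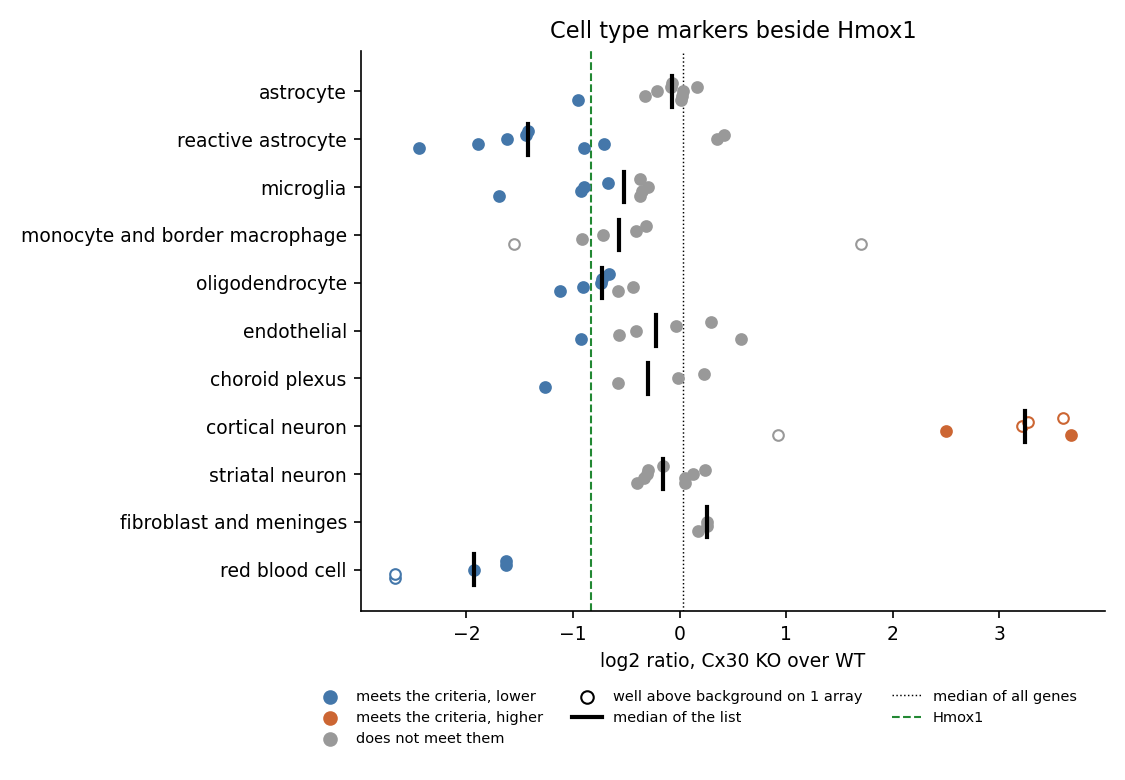
Log2 ratio of Cx30 KO over WT of each detected marker gene of 11 cell types (points), with list medians as bars, the median of all genes as a dotted line and *Hmox1* (−0.83) as a dashed line. Open points were well above background on 1 array. Red blood cell and reactive astrocyte medians lie to the left of *Hmox1*, microglial and oligodendrocyte medians between it and 0, and cortical neuron markers to the right.

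No member changed sign when the arrays were processed in other ways. Over 9 ways of normalising, filtering and summarising probes *Hmox1* ranged from −0.88 to −0.82 on the log2 scale. *Osgin1* ranged from 0.44 to 0.72 and *Slc7a11* from −0.92 to −0.27. The −0.92, from the mean of its probes, includes the probe measured in WT alone and so has no exact value. *Gclc*, *Gclm*, *Nqo1* and *Gsta4* stayed between 0.11 and 0.26, and *Txnrd1*, *Srxn1* and *G6pdx* between −0.32 and −0.18.

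**Figure D5:**
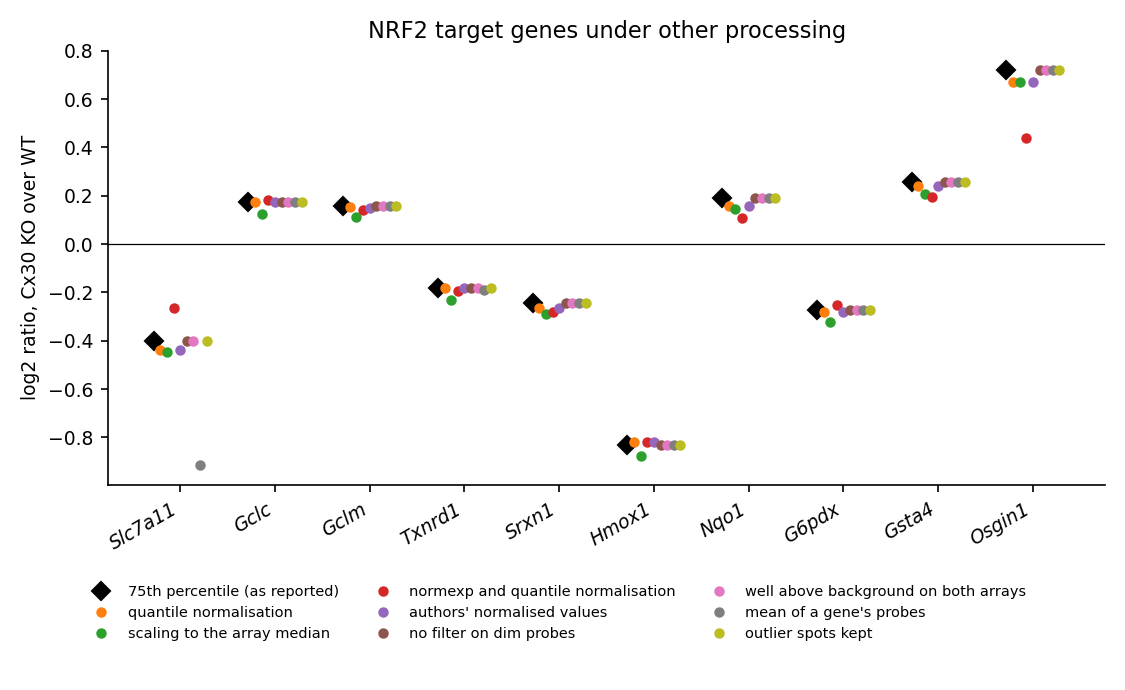
Log2 ratio of Cx30 KO over WT of the 10 NRF2 target genes under 9 ways of processing (diamonds as reported, points the alternatives). *Hmox1* stays between −0.88 and −0.82, and the lowest point of *Slc7a11* (−0.92) averages in a probe not well above background in Cx30 KO.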

How the data were processed

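Pooled striatal RNA of 2 mice was hybridised to each of 2 arrays, 1 WT and 1 Cx30 KO, which share a slide and a scan. The authors extracted spots with Agilent Feature Extraction, version 9.5.1.1 per the labels and 10.7.1.1 per the file headers. The processed signals they deposited are linear intensities, background-subtracted and detrended within each array, and not normalised between arrays, so scaling can shift every ratio. Saline arrays were not analysed here. Some marker genes are not reported here by name. The authors' table of values was checked: over 99.9% of it lay within 1% of the quantile-normalised processed signals.

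From the 62976 spots of each array, 56605 probes remained without controls, and outlier spots were left out. Log2 signals were averaged over the spots of a probe and scaled to the 75th percentile of the array (401 in WT, 382 in Cx30 KO). Probes with 50% or more of their spots marked by the software as well above background were counted as such, 32019 in WT and 32961 in Cx30 KO, and 0 probes were saturated. A gene took its brightest probe well above background on at least 1 array, and 1897 symbols were updated through RefSeq. Where only 1 array measured a probe, its fold is a bound against the higher of the other array's own signal and the lowest signal well above background (19.8 in WT, 17.4 in Cx30 KO), given as at least that fold. With 1 array for each genotype no test was possible, p-values are not given, and precision is limited by the number of arrays. The script was tested on simulated data.

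The 10 genes, the other lists and the markers were chosen with earlier results of these data known, and the list of heme genes after the values were seen. Named are all 10 genes, each regulator, each gene of the lists that met the criteria, the brightest of each list, the least changed where a list of the pathway is described, and *Gjb6*, with oligodendrocyte markers given as a list only, as are those of endothelium, choroid plexus and fibroblasts apart from genes that met the criteria; the near misses and examples beyond this rule (among them *Taldo1*, *Sod1*, *Sod2*, *Sod3*, *Cat*, *Gpx3*, *Akr1b10* and *Akr1b3*) were chosen after their values were seen. The spread between spots and between probes was summarised first as a median SD, and the root mean square SD was added after seeing the values. The design fixed neither. The median, the smaller, was used to judge whether an alternative moved a value. Alternatives were quantile and median scaling, normexp (limma 3.58.1, R 4.3.3, offset 50), the authors' table, no filter, a filter on both arrays, the mean of probes, outlier spots kept, Z-scores over all or the 200 nearest probes, and ratio limits of 2 and 0.5. Other steps used Python 3.11.15 with pandas 2.3.3 and numpy 2.4.6.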

Additional observations from a re-analysis of the deposited data

How the results depend on the processing

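Of 114 recomputed counts and medians of lists, 104 stayed within 1.5 times the reported count or within the spread between spots, as did 75 of 80 log2 ratios of single genes, and the only one to change sign was the median of NRF2 regulators, at −0.01 with scaling to the array median. The cause of the others was not tested. With the Z-score over all probes 0 NRF2 genes were lower, all genes lower numbered 455, and 0 other NRF2 targets were higher. With ratio limits of 2 and 0.5 these were 0, 428 and 0, and all genes higher numbered 340. With a filter on both arrays all genes higher numbered 328, since genes measured on 1 array are left out. Averaging the probes of each gene gave a median log2 ratio of −0.0226 for other NRF2 targets and 0.13 for NRF2 regulators (the opposite-strand probe of *Syvn1* included), with *Slc7a11* at −0.92, which includes a probe not well above background in Cx30 KO and is no exact value, and turned *Nfe2l2*, which is not among the 80, from −0.55 to 0.21. With normexp *Slc7a11* was at −0.27, *Nqo1* at 0.11, *Gsta4* at 0.20 and *Osgin1* at 0.44. By the root mean square SD between spots (0.07) in place of the median SD (0.06), *Gsta4* would count as not moved. Scaling to the array median put 52.7% of all genes below 0, and no filter 56.7% (median log2 ratio −0.07), against 45.4% (0.03). *Akr1b8* met the criteria in 11 of 11 alternatives and *Hmox1*, *Bach2*, *Aldh3a1*, *Gpx2* and *Trib3* in 9. No paired analysis was possible because each genotype has 1 array, and for the same reason no replicate could be left out.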

Other observations

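A list of 12 genes of heme handling, chosen after the values of *Hmox1* were seen, had log2 ratios below 0 in 6 and above in 6. Of all genes 45.4% were below 0. The median of the list was −0.01, and none of its genes met the criteria. *Hmox2*, the constitutive heme oxygenase, had 3792 in WT and 3611 in Cx30 KO (log2 ratio 0.00). The biliverdin reductases *Blvra* and *Blvrb*, which act after heme oxygenase, were at −0.28 and 0.25. *Hp*, which binds free hemoglobin, was the highest at 0.60 and was dim on both arrays (30.7 and 44.3), and *Cd163*, the receptor that takes up its complex with hemoglobin, was the lowest at −0.41.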
